A study of Homo sapiens with 15 samples.

Results

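The p53 target genes are genes whose promoters or introns are bound by the transcription factor p53 and that are transcribed when p53 is active. A list of 35 of them was followed over 15 arrays, by the platform's single gene symbol for a probe set, with 1 probe set kept per gene (the one with the highest mean over all arrays). Of the 35 genes, 32 were measured among 19775 genes in all, and BBC3, FDXR and BTG2 were not analysed here. The 32 genes were read by 81 probe sets, and 19 of them had more than 1.

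The 15 arrays fall into 5 groups of 3, which the labels call biological replicates. A2780/cp70 (CP70) cells, a cisplatin-resistant line derived from the human ovarian cancer line A2780, were given decitabine and PXD101 together, decitabine alone, PXD101 alone, or no drug. Untreated A2780, the cisplatin-sensitive parent, was the remaining group. Decitabine is a cytidine analogue that traps DNA methyltransferases and lowers DNA methylation, and PXD101 (belinostat) inhibits histone deacetylases. Decitabine was used at 0.1 µM for 48 h, and PXD101 at 0.1 µM for 48 h when given alone. In the combination the decitabine lasted 48 h and PXD101, also at 0.1 µM, was present for 24 h, so PXD101 exposure differed between the combination and PXD101 alone. Treated cells were collected 96 h after removal of the drug. Each line is a single cell line, so a difference between CP70 and A2780 is one between these lines.

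In unstressed cells p53 is kept low by the ubiquitin ligase MDM2, itself a p53 target. DNA damage, such as the platinum crosslinks left by cisplatin, activates the kinases ATM, ATR and CHEK2, which stabilise p53. The targets then halt the cell cycle (CDKN1A, encoding p21), repair DNA (XPC, DDB2), change metabolism (TIGAR), or start apoptosis (BAX, PMAIP1, FAS). Several of them, among them GADD45A, GDF15, PMAIP1 and TNFRSF10B, are also known to be induced without p53 by the ATF4 stress response.

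p53 binds a pair of half-sites, and a script searched RefSeq promoters (GRCh38.p14, 250 bases before to 50 after each start) for the p53 half-site consensus on both strands. The half-site was found in 5 of 36 promoter windows of 25 of the genes (13.9%), against 2329 of all 35116 windows (6.63%). The windows below are shown because they hold those matches, which are printed in capitals. A match is a string of letters and not a measured binding site.
PLK2 (chr5:58460199-58460228, minus strand, 132 bases before the start): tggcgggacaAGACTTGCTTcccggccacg
SESN1 (chr6:109009018-109009047, minus strand, 49 bases before the start): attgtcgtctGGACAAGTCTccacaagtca
FAS (chr10:88991299-88991328, plus strand, 122 bases before the start): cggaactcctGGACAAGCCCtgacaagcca
DDB2 (chr11:47214975-47215004, plus strand, 5 bases after the start): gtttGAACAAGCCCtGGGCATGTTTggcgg
AEN (chr15:88621296-88621325, plus strand, 34 bases before the start): agtcggagccGGGCTTGCCCgggcatgtgg

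The DDB2 window holds 2 half-sites with 1 base between them, the arrangement of a full p53 response element. Such a pair, with a spacer of at most 13 bases, stood in 1 of the 36 windows (2.78%) and in 10 of all 35116 (0.0285%). DDB2 encodes a subunit of a UV damage sensor, and its values are given with those of the repair genes.

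The deposited values are on a log2 scale, and 1 unit is a doubling. The values of the 15 arrays had medians between 5.00 and 5.06, and over all genes the lower quartile was 4.34 and the median 6.28, which gives a scale for the levels below. Array 2 of untreated CP70 stood apart: its mean correlation was 0.996 with the 3 PXD101 arrays and 0.984 with the other untreated CP70 arrays. The p53 targets PMAIP1, TNFRSF10B, GADD45A and GDF15, 4 of the 32, were at least 1 log2 higher in untreated CP70 replicates 1 and 3 than in replicate 2, as were 287 of all genes (1.45%). For 14 of the 32 p53 targets, replicate 2 lay within the range of the PXD101 arrays (43.8%), as it did for 51.1% of all genes. Counts of p53 targets that rest on untreated CP70 are also given without replicate 2 and without replicates 1 and 3. For the related gene lists only some of these counts are given, and for the cell type markers none. With replicates 1 and 3 left out, 1 untreated CP70 array remains, which the fit assumes to vary like the arrays of the other groups.

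Of the 6 epithelial markers KRT8, KRT18 and EPCAM averaged above the median of all genes in every group, KRT7 below it at 6.01 to 6.22, and CDH1 below the lower quartile at 3.56 to 3.71. KRT19 averaged 4.37 in untreated CP70 and 4.68 in A2780. Of the 4 ovarian markers PAX8 was above the median, WT1 and MUC16 were below the lower quartile, and MECOM averaged 10.85 in untreated CP70 and 4.02 in A2780. The leukocyte markers PTPRC, CD3E and CD14 and the endothelial markers were below the median of all genes in every group, and TYROBP, also a leukocyte marker, averaged 6.92 with decitabine, against 5.62 in untreated CP70. The array's 3′ minus 5′ difference for beta-actin, a measure of RNA integrity, was 0.424 to 0.491 with both drugs, 0.342 to 0.787 with decitabine and 0.384 to 0.508 with PXD101, against 0.629 to 0.859 in untreated CP70, and was 0.337 to 0.377 in A2780. Its part in the differences from untreated CP70 and in that between the lines was not tested. Decitabine's known effect was visible in ARMCX2, which averaged 10.36 in decitabine-treated CP70 and 10.50 with both drugs, against 3.64 in untreated CP70.

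Untreated CP70 differed from A2780 in 22 of the 32 p53 targets. Of these, 5 were higher in CP70 and 17 were lower, against 31.2% of all genes called (16.1% higher and 15.2% lower). The 32 genes had a median log2 change of -0.37, against 0.01 over all genes. The call was an adjusted p under 0.05 in limma (Benjamini-Hochberg over all 19775 genes). By rank product, the authors' own test, 2 were higher (PMAIP1 and PHLDA3; 2.71% of all genes) and 2 lower (BAX and TP53INP1; 2.59%). In these bulk RNA values, less RNA per cell and fewer expressing cells cannot be told apart.

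**Figure D1:**
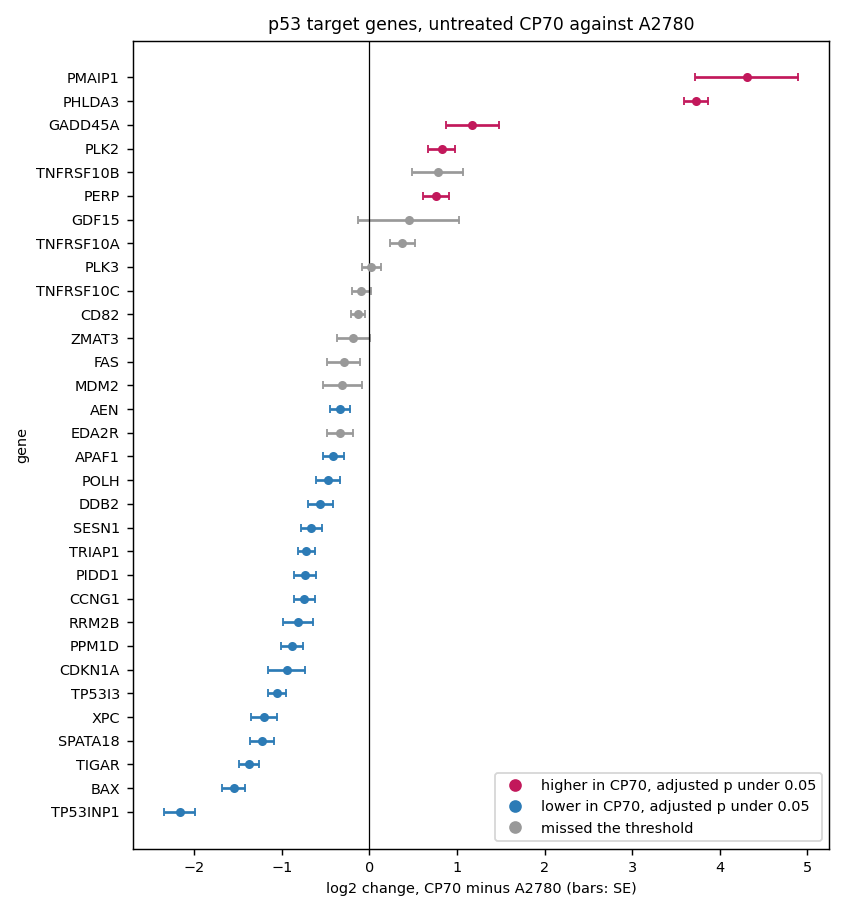
Log2 change of each of the 32 p53 target genes in untreated CP70 against A2780 (horizontal axis; 3 arrays each), ordered by size. Points are limma estimates and bars are standard errors; 5 genes are higher in CP70 (magenta), 17 lower (blue) and 10 missed the threshold (grey).

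The cell cycle genes did not move together. CDKN1A, the inhibitor of cyclin-dependent kinases that carries p53's arrest signal, read 9.91, 9.10 and 9.95 in untreated CP70, against 10.24, 10.64 and 10.92 in A2780. Every CP70 array lay below every A2780 array, and CDKN1A was lower by -0.95 ± 0.21 (SE; adjusted p = 0.00319). GADD45A, which links damage signals to growth arrest, read 12.09, 10.94 and 12.05 in untreated CP70, against 10.38, 10.42 and 10.76 in A2780, and replicate 2 was the CP70 array nearest to A2780. Its change of 1.18 ± 0.31 (adjusted p = 0.00797) was 0.43 (adjusted p = 0.51) with CP70 replicates 1 and 3 left out. PLK2, a stress-responsive kinase of the polo family, was higher in CP70 (0.82 ± 0.16), and PLK3, its relative, was not called (0.02 ± 0.11).

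The genes that feed back on p53 were lower in CP70 or missed the threshold. PPM1D, the phosphatase that dephosphorylates p53, was lower by -0.88 ± 0.13, and CCNG1, encoding cyclin G1, by -0.74 ± 0.12. MDM2 read 10.04, 9.33 and 10.16 in untreated CP70, against 10.09, 10.06 and 10.30 in A2780, and the groups overlapped. The change of MDM2 was -0.31 ± 0.22 (adjusted p = 0.349). It was -0.05 without CP70 replicate 2 and -0.82 (adjusted p = 0.0438) without replicates 1 and 3, and 3 of its 10 probe sets were lower in CP70, over a range of -1.14 to 0.43.

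All 4 repair and nucleotide supply genes were lower in CP70. XPC, which recognises distorted DNA in nucleotide excision repair, read 7.62, 8.20 and 7.65 in untreated CP70, against 8.92, 9.00 and 9.16 in A2780, and the groups did not overlap. XPC was lower by -1.20 ± 0.15 (adjusted p = 1.28e-05). The other changes were -0.81 for RRM2B, the p53-inducible ribonucleotide reductase subunit, -0.56 for DDB2, and -0.48 for POLH, a translesion polymerase. Without CP70 replicates 1 and 3 the changes of DDB2 and POLH missed the threshold (adjusted p = 0.137 and 0.444).

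The redox and metabolism genes were all lower in CP70. TIGAR, which lowers glycolysis and feeds the pentose phosphate pathway, read 10.24, 9.94 and 10.19 in untreated CP70, against 11.55, 11.40 and 11.54 in A2780. TIGAR was lower by -1.37 ± 0.11 (adjusted p = 1.38e-07). TP53I3, a quinone oxidoreductase, read 10.02, 9.81 and 10.02 in untreated CP70, against 10.86, 11.03 and 11.13 in A2780, a change of -1.05 ± 0.10 (adjusted p = 9.82e-07). In both genes the 3 CP70 arrays lay below the 3 A2780 arrays. SESN1, a sestrin that restrains TORC1, was lower by -0.66 ± 0.12.

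Among the 13 cell death genes, 3 were higher in CP70 and 5 were lower. PMAIP1 (NOXA), a BH3-only protein that opposes MCL1, read 10.42, 8.03 and 10.38 in untreated CP70, against 5.35, 5.17 and 5.38 in A2780. It was 19.8-fold higher in CP70, or 4.31 ± 0.58 log2 (adjusted p = 4e-05). The difference was 34.2-fold without CP70 replicate 2 and 6.61-fold without replicates 1 and 3. PHLDA3, a repressor of AKT at the membrane, read 8.77, 8.62 and 9.08 in untreated CP70, against 5.40, 4.91 and 4.96 in A2780, a 13.3-fold difference (3.73 ± 0.14 log2, adjusted p = 1.74e-11). Both genes lay below the median of all genes in A2780 and above it in every untreated CP70 array. PERP, a desmosome and apoptosis protein, was also higher (0.76 ± 0.15).

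BAX and TP53INP1 went the other way. BAX, the pore-forming protein of mitochondrial apoptosis, read 7.93, 8.18 and 8.16 in untreated CP70, against 9.58, 9.53 and 9.80 in A2780, and was lower by -1.55 ± 0.13 (adjusted p = 1.89e-07). TP53INP1, which helps p53 phosphorylation and autophagy, read 8.15, 7.38 and 7.89 in untreated CP70, against 9.81, 9.89 and 10.22 in A2780, and was lower by -2.17 ± 0.18 (adjusted p = 1.78e-07). All CP70 arrays lay below the A2780 arrays for both genes, and both BAX probe sets were lower. For TP53INP1, 1 of 3 probe sets was called, over a range of -2.17 to -0.11. The other lower genes were PIDD1 (-0.74), a caspase-2 platform, APAF1 (-0.41), the apoptosome scaffold, and AEN (-0.33), an apoptosis-linked nuclease.

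The death receptors missed the threshold. FAS had a change of -0.29 ± 0.19, which was -0.54 (adjusted p = 0.0126) without CP70 replicate 2, and TNFRSF10A one of 0.38 ± 0.14. TNFRSF10B, the TRAIL receptor DR5, read 11.920, 10.653 and 12.001 in untreated CP70, against 10.689, 10.678 and 10.866 in A2780, with CP70 replicate 2 at the A2780 level (0.78 ± 0.29, adjusted p = 0.0561). Without replicate 2 its adjusted p was 0.000177. SPATA18, a mitochondrial quality control gene, read 4.75, 4.79 and 4.77 in untreated CP70, against 5.75, 5.95 and 6.28 in A2780, and was lower (-1.23 ± 0.13, adjusted p = 4.1e-06) with the CP70 values close to the lower quartile. TRIAP1, an inhibitor of apoptosis, was lower as well (-0.72 ± 0.10). GDF15, a stress cytokine, read 11.07, 9.15 and 11.12 in untreated CP70, against 9.34, 10.03 and 10.62 in A2780, and was not called (adjusted p = 0.639). CD82, EDA2R, TNFRSF10C and ZMAT3, a membrane protein, 2 receptors and an RNA-binding protein, were not called either, with changes of -0.13, -0.34, -0.09 and -0.18.

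Without CP70 replicate 2, 23 p53 targets were called in CP70 over A2780 (38.2% of all genes were, in that setting), and without replicates 1 and 3, 18 were (17% of all genes). With replicates 1 and 3 left out, 3 were higher and 15 lower. Besides GADD45A, DDB2 and POLH, the calls lost were PERP (adjusted p = 0.112) and APAF1 (adjusted p = 0.406). Without replicate 2, AEN was no longer called (adjusted p = 0.134).

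**Figure D2:**
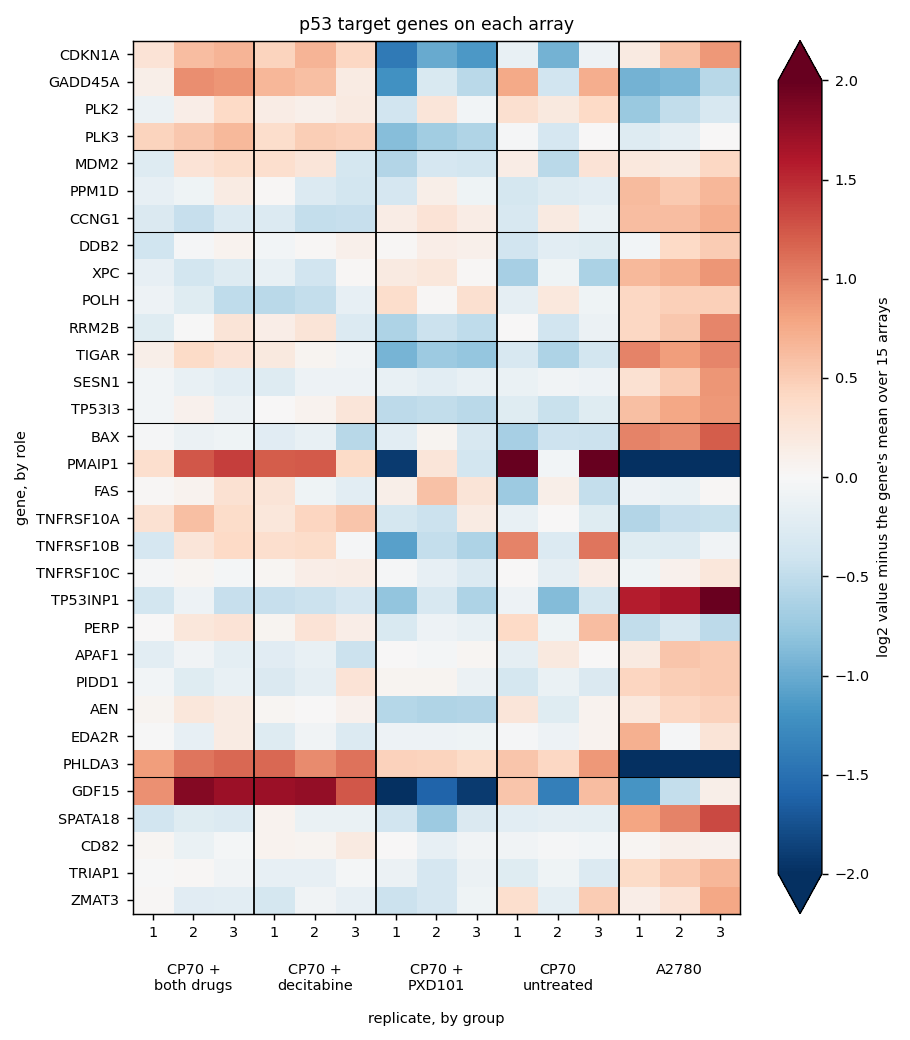
Log2 value of each of the 32 p53 target genes on each of the 15 arrays, minus that gene's mean over all arrays (red above, blue below the mean), with genes ordered by role and arrays by group. In untreated CP70 the PMAIP1 values of replicates 1 and 3 (10.42 and 10.38) are redder than that of replicate 2 (8.03).

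The treated CP70 groups were also set against A2780. These comparisons share the A2780 arrays, so their values stand side by side. With decitabine 25 of 32 p53 targets differed from A2780, 8 higher and 17 lower, against 29.9% of all genes (17% higher, 12.9% lower). With PXD101 21 did, 2 higher and 19 lower, against 21.8% (12.1% higher, 9.68% lower). With both drugs 24 did, 8 higher and 16 lower, against 30.9% (17.3% higher, 13.6% lower). TP53INP1 changed by -2.13 with decitabine, -2.30 with PXD101 and -2.04 with both drugs, close to the -2.17 of untreated CP70. BAX changed by -1.36 with decitabine, -1.21 with PXD101 and -1.13 with both drugs. PHLDA3 changed by 4.18 with decitabine, 3.55 with PXD101 and 4.14 with both drugs. CDKN1A was -0.03 with decitabine (95% confidence interval -0.49 to 0.43) and -0.02 with both drugs (-0.48 to 0.44), neither called, and -1.73 with PXD101.

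Decitabine alone was followed by 5 p53 targets higher and 0 lower, against 8.01% of all genes called (4.87% higher, 3.14% lower). The members' median change was 0.12, against 0.02 over all genes. CDKN1A read 10.51, 10.73 and 10.47 with decitabine, against 9.91, 9.10 and 9.95 in untreated CP70, a change of 0.91 ± 0.21 (adjusted p = 0.0162). TIGAR read 10.76, 10.61 and 10.49 with decitabine, against 10.24, 9.94 and 10.19 untreated (0.50 ± 0.11, adjusted p = 0.0114). TP53I3 read 10.27, 10.33 and 10.51 with decitabine, against 10.02, 9.81 and 10.02 untreated (0.42 ± 0.10, adjusted p = 0.0189). In each of these genes the decitabine arrays lay above all untreated CP70 arrays. PLK3 (0.55 ± 0.11) and the death receptor TNFRSF10A (0.53 ± 0.14) were the other 2. TNFRSF10A averaged 5.33 with decitabine and 4.80 untreated, between the lower quartile and the median of all genes.

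GDF15 had a larger change that missed limma's threshold and was the 1 p53 target called higher by rank product (1.3% of all genes). It read 12.21, 12.26 and 11.75 with decitabine, against 11.07, 9.15 and 11.12 in untreated CP70, and no arrays overlapped (1.63 ± 0.58, adjusted p = 0.102). Its change was 0.98 without untreated replicate 2 and 2.93 (adjusted p = 0.0314) without replicates 1 and 3, where the untreated arm is 1 array. Without replicate 2, 11 p53 targets were called, 7 higher and 4 lower, against 23.6% of all genes, FAS, XPC, TNFRSF10B and ZMAT3 among the added calls. Without replicates 1 and 3, 6 were called (3.75% of all genes), TNFRSF10A (adjusted p = 0.372) not among them. Calls were also lost without a single decitabine array: CDKN1A without replicate 2 (adjusted p = 0.0663), TIGAR without replicate 1 (0.0506) and TP53I3 without replicate 3 (0.0826). Epithelial markers moved with decitabine too: 4 of 6 were higher, with KRT19 by 2.67 and KRT8 by 1.37, and the part of these markers in the p53 target changes was not tested.

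**Figure D3:**
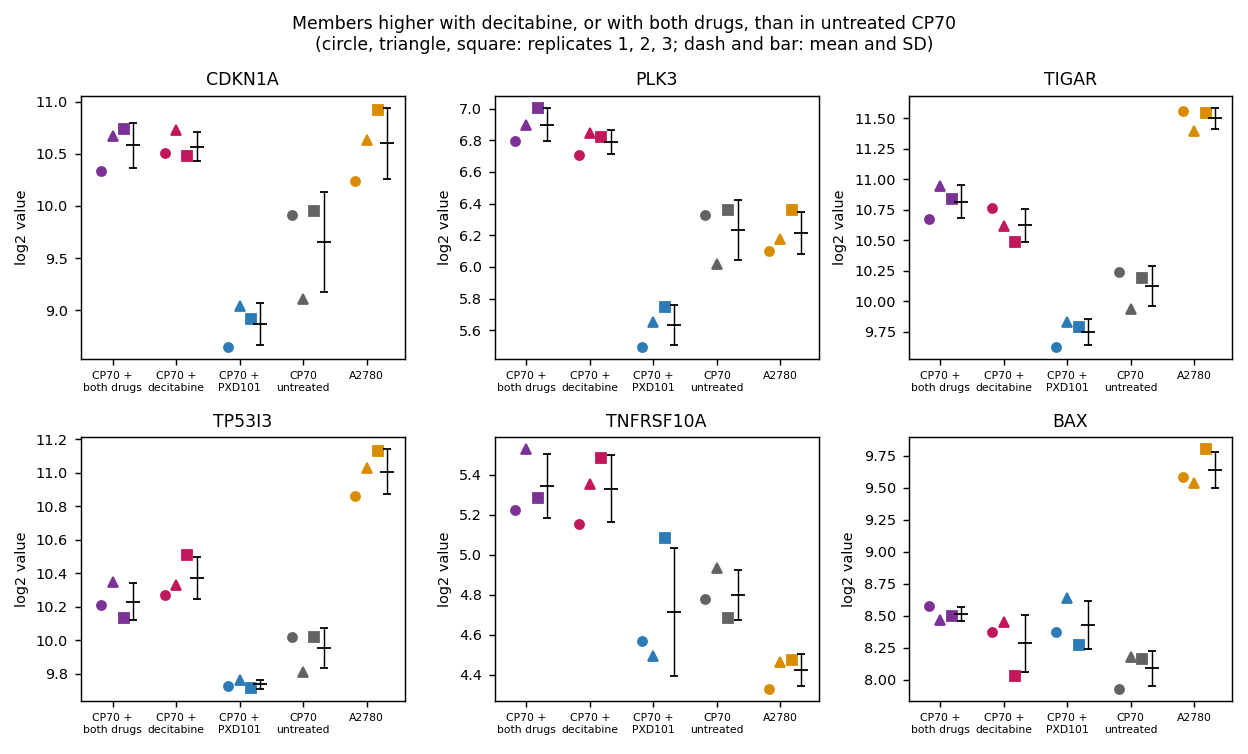
Log2 values of 6 p53 target genes on every array, by group; circle, triangle and square are replicates 1, 2 and 3, and the dash and bar are the mean and SD. CDKN1A is between 10.47 and 10.73 with decitabine and between 9.10 and 9.95 in untreated CP70.

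Both drugs together were followed by 5 p53 targets higher and 0 lower than in untreated CP70, against 10.4% of all genes (6.17% higher, 4.22% lower). TIGAR (0.69), PLK3 (0.66), CDKN1A (0.93), TNFRSF10A (0.55) and BAX (0.42, adjusted p = 0.0473) were higher. CDKN1A read 10.33, 10.67 and 10.74 with both drugs, TIGAR 10.68, 10.94 and 10.83, and BAX 8.57, 8.47 and 8.50. All lay above the untreated CP70 arrays. The BAX call was lost without untreated replicate 1 (0.35) or 3 (0.46), and without any one array of both drugs. It was also lost with the mean of the probe sets, with every probe set tested, with either other normalization, with the replicate block and with only the compared arrays (adjusted p from 0.0513 to 0.0768). The CDKN1A call was lost without replicate 2 (0.88) or 3 (0.85) of both drugs. GDF15 read 11.42, 12.34 and 12.21 with both drugs (1.55 ± 0.58, adjusted p = 0.108), and rank product called it higher (1.49% of all genes). Without untreated replicate 2, 11 p53 targets were called (24.9% of all genes), and without replicates 1 and 3, 5 were (4.37%). Here too 4 of 6 epithelial markers were higher, KRT19 by 2.94 and KRT8 by 1.60, as was the leukocyte marker TYROBP by 1.17, and the part of these markers was not tested.

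PXD101 alone was followed by 2 p53 targets higher and 9 lower than in untreated CP70, against 10.7% of all genes called (5.57% higher, 5.15% lower). XPC (0.60) and FAS (0.68) were higher. The lower genes included GDF15, which read 6.59, 8.91 and 8.60 with PXD101, against 11.07, 9.15 and 11.12 untreated (-2.41 ± 0.58, adjusted p = 0.0267), and PMAIP1, which read 6.16, 8.32 and 7.72 with PXD101, against 10.42, 8.03 and 10.38 untreated (-2.21 ± 0.58, adjusted p = 0.0332). Untreated replicate 2 lay close to or within the PXD101 arrays for both. TNFRSF10B read 9.84, 10.46 and 10.32 with PXD101 (-1.32 ± 0.29), GADD45A 10.12, 11.01 and 10.78 (-1.06 ± 0.31) and CDKN1A 8.65, 9.04 and 8.91 (-0.79 ± 0.21). PLK3, AEN, PERP and TIGAR were the other lower genes, between -0.61 and -0.37. Rank product called PMAIP1, TNFRSF10B and GDF15 lower (1.16% of all genes).

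None of the 11 changes with PXD101 was called without untreated replicates 1 and 3, where limma gave an adjusted p of 1 for each. The number was also 0 without CP70 replicate 1 or 3 and 0 without any one PXD101 replicate, and 14 without CP70 replicate 2 (29% of all genes). Without replicates 1 and 3, 0 of all 19775 genes were called. The ATF4 stress list moved with the same arrays: its median level was 11.93 and 11.71 in untreated replicates 1 and 3 and 10.16 in replicate 2, against 9.15 to 10.02 with PXD101. Of its 15 genes 11 were lower with PXD101, and 0 without untreated replicates 1 and 3. Its part in the PMAIP1, GDF15, TNFRSF10B and GADD45A values was not tested.

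**Figure D4:**
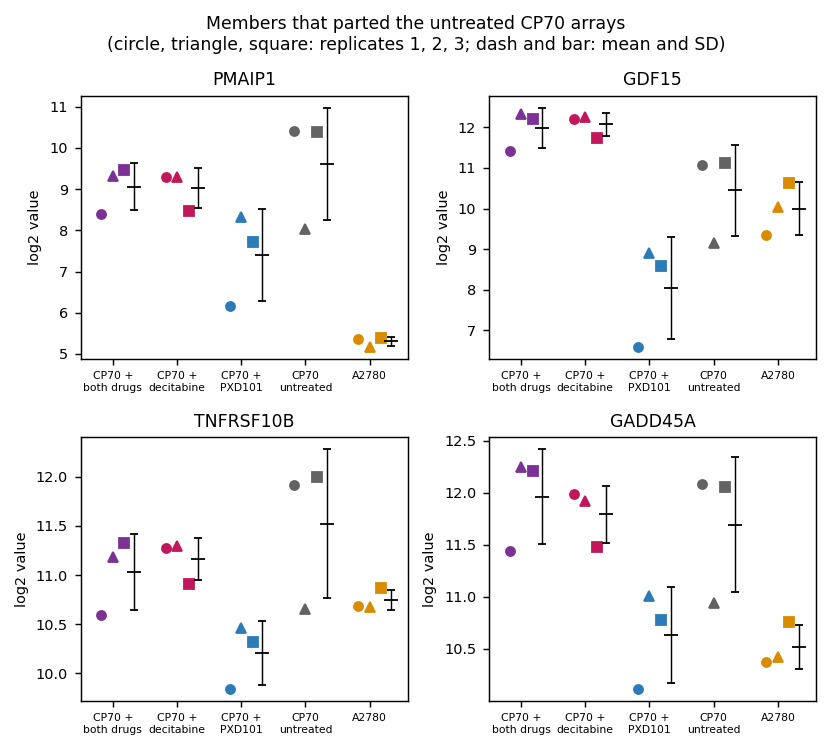
Log2 values of PMAIP1, GDF15, TNFRSF10B and GADD45A on every array, by group; circle, triangle and square are replicates 1, 2 and 3, and the dash and bar are the mean and SD. In untreated CP70 the triangle (replicate 2) lies at least 1 log2 below the other 2 symbols in every panel.

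Adding PXD101 to decitabine left no p53 target called. Limma called 0 of 32 in both drugs over decitabine, against 0.0101% of all genes. At an unadjusted p under 0.05 there were also 0 of 32, against 4.7% of all genes. The changes lay between -0.23 (SPATA18) and 0.23 (BAX). Rank product was not run on this comparison.

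Both drugs were also compared with PXD101 alone, which gave 9 p53 targets higher and 2 lower, against 9.94% of all genes (5.91% higher, 4.03% lower). The groups differ in PXD101 time as well as in decitabine, with PXD101 present for 24 h in the combination and 48 h alone. CDKN1A was higher by 1.71 ± 0.21 (adjusted p = 0.000108), GDF15 by 3.96 ± 0.58 (adjusted p = 0.000422), PLK3 by 1.27, TIGAR by 1.07, GADD45A by 1.33, AEN by 0.73, TNFRSF10A by 0.63, PHLDA3 by 0.59 and TP53I3 by 0.49. CCNG1 (-0.53) and POLH (-0.51) were lower. The GADD45A call was lost without replicate 2 (1.19) or 3 (1.21) of both drugs or replicate 1 of PXD101 (1.07), and the PHLDA3 call without replicate 2 (0.56) or 3 (0.52) of both drugs or replicate 3 of PXD101 (0.56). The same 4 epithelial markers and TYROBP were higher, KRT19 by 2.14 and TYROBP by 1.21, and their part was not tested. This comparison and decitabine over untreated CP70 share no arrays. Their calls come from the same fit, with a shared estimate of spread per gene, so they are not independent tests. The same 5 genes were higher in both: 5 of 5 (100%) of those higher with decitabine alone, and 5 of 9 (55.6%) of those higher with both drugs over PXD101. Over all genes 529 were higher in both, 54.9% of 963 and 45.3% of 1169. When each fit held only the compared arrays, 0 p53 targets were called in decitabine over untreated CP70. In both drugs over PXD101, 16 were. The share of all genes called in these fits is not given here, so the counts do not set the p53 targets apart.

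**Figure D5:**
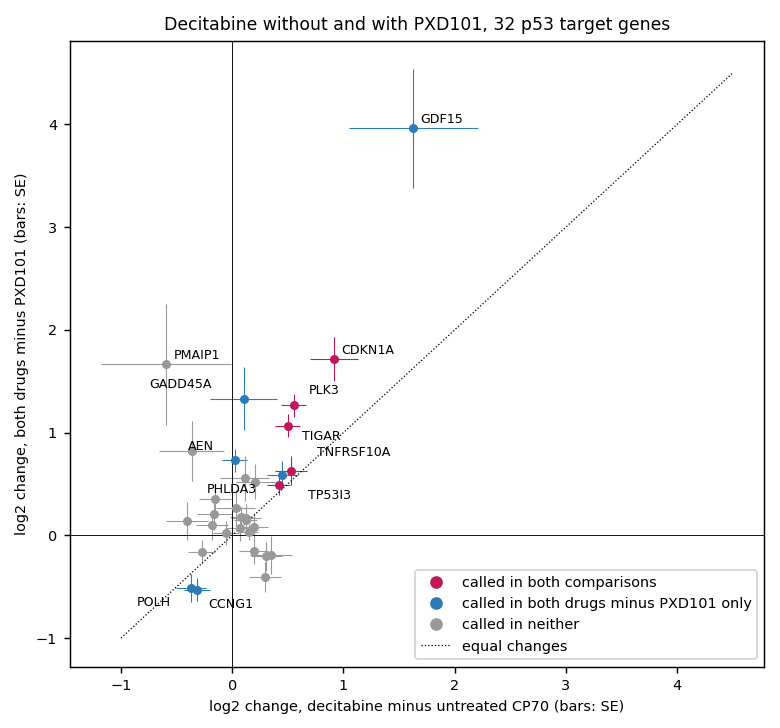
Log2 change of each of the 32 p53 target genes for decitabine minus untreated CP70 (horizontal) and both drugs minus PXD101 (vertical), with standard errors. PXD101 was present for 24 h in the combination and 48 h alone. The 5 genes called in both are magenta and those called in the second alone are blue; GDF15 lies at 1.63 and 3.96, above the dotted line of equal changes.

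The decitabine change with PXD101 was set against that without it as a non-additive term. PXD101 lasted 24 h in the combination and 48 h alone. The term holds that difference in exposure too, which cannot be told apart from a non-additive response. Limma called 0 of 32 p53 targets (0.0152% of all genes), with 11 at an unadjusted p under 0.05, 9 higher and 2 lower, against 18.1% of all genes. Without untreated CP70 replicate 2 the count was 12 (37.5%, against 20.5% of all genes), GDF15 (2.98, adjusted p = 0.00716), CDKN1A (1.07, adjusted p = 0.00511) and PMAIP1 (3.05, adjusted p = 0.00291) among them. Without replicates 1 and 3 it was 0.

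The wider p53 pathway was read from lists of related genes. Over all genes 16.1% were higher and 15.2% lower in CP70 than in A2780. Without CP70 replicate 2 these shares were 18.4% and 19.8%. Of 23 regulators and partners 3 were higher and 8 lower (6 called in all without CP70 replicates 1 and 3), and TP53BP1, which recruits repair factors to breaks (-1.43 ± 0.15), CHEK2 (-1.38 ± 0.20) and PPP1R13B, a p53 coactivator (0.72 ± 0.12), had the smallest p. Of 29 further p53 targets 3 were higher and 15 lower (0 and 13 without CP70 replicates 1 and 3), with CYFIP2 (-2.90), THBS1 (-3.86) and KITLG (-2.43) the lowest p. Of 25 DREAM targets, the cell cycle genes that p21 holds down, 8 were higher and 1 lower (8 and 6 without CP70 replicate 2), among them NEK2 (0.71), TTK (0.61) and CCNB2 (0.54, but 0.01 and not called with the mean of its probe sets). All 15 ATF4 stress genes were higher in CP70, SLC7A11, the cystine transporter, by 5.69, and 3 were called without CP70 replicates 1 and 3.

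With decitabine, 3 further p53 targets were higher than in untreated CP70, SERTAD1 (0.81), FUCA1 (0.74) and TGFA (0.42), and 0 lower, against 4.87% and 3.14% of all genes. Without untreated replicate 2, 8 were higher and 4 lower, and FUCA1 was 0.37 and not called with the mean of its probe sets. TGFA lost its call without CP70 replicate 1 (0.36) or decitabine replicate 2 (0.38) or 3 (0.37). Of the regulators TP53BP1 was higher (0.62) and CDKN2A lower (-0.32). Without replicate 2, 9 regulators were called, and without replicates 1 and 3, 0 were. CDKN2A lost its call without any one decitabine array, and both lost it without CP70 replicate 1 or 3. TP53BP1 was 0.21 and not called with the mean of its probe sets. No DREAM target was called by limma (0 of 25) or by rank product. At an unadjusted p under 0.05 there were 4 of 25, against 22.8% of all genes. Without untreated replicate 2, 8 DREAM targets were called, all higher. In that setting 14.2% of all genes were higher and 9.44% lower, and these shares apply to the other lists too. Of the ATF4 list PHGDH was lower (-0.91); 6 were lower without untreated replicate 2 and 0 without replicates 1 and 3.

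In the 5 comparisons checked, no p53 target had 1 probe set called higher and another called lower. The 2 PMAIP1 probe sets were higher in CP70 by 4.23 and 4.31, the 2 PHLDA3 probe sets by 3.73 and 4.01, and all 6 POLH probe sets were lower, by -1.39 to -0.48. With decitabine 2 of 3 TNFRSF10A probe sets and 1 of 3 PLK3 probe sets were higher. With PXD101 1 of 4 TNFRSF10B probe sets (-1.32 to -0.10) and 1 of 3 GDF15 probe sets (-2.41 to -0.37) were lower. Some genes that were not called had other probe sets called. For MDM2, 2 of 10 were higher with both drugs than in untreated CP70 (-0.01 to 0.92), and 3 of 10 over PXD101 (-0.03 to 0.91). For ZMAT3, 1 of 5 was lower in CP70 than in A2780 (-1.205 to -0.18), and 1 of 5 with PXD101 (-0.59 to -0.29).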

How the data were processed

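Total RNA was amplified with a NuGEN kit and hybridised to arrays with 54675 probe sets. The deposited values are log2 intensities, per the value range of the authors' table (2.39 to 14.52). R 2.10.1 and affy were used, per the submitters' processing notes, while background correction, normalization and summarization were not given in the sources used here. Probe sets with several symbols (1801), no symbol (11721) and 62 controls were left out. Symbols were updated through Entrez identifiers to RefSeq.

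limma 3.58.1 (R 4.3.3) fitted group means over all 15 arrays, with Benjamini-Hochberg adjustment over 19775 genes. Rank product, named in the series' design text, was run for the 4 main comparisons. The members, their roles and all gene lists were chosen with earlier results of these data known. Values per array are given for members called with a change of at least 1 log2 in a main comparison, and always for CDKN1A, MDM2, BAX and GDF15. Other lists give up to 3 genes with the smallest p. p-values measure the spread between these arrays, whose number limits the precision, and arrays give no sequencing depth. On simulated data for decitabine over untreated CP70, 92% to 94% of changes of 1 log2 and 54% of those of 0.5 were called. The simulation drew all arrays of a gene with the same spread. In the data untreated CP70 replicate 2 stood apart from its group, so these shares need not hold for the real comparison.

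Alternatives were rank product, a 2-fold minimum, array weights, a replicate block, probe set and filter choices, the compared arrays alone, and leaving out arrays. Leaving out CP70 arrays for the other gene lists was chosen after seeing the data.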

Additional observations from a re-analysis of the deposited data

How the results depend on the processing

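Of the named-gene results, 4155 kept their side of the threshold, 237 lost the call and 118 gained it. No direction was reversed where either setting called the gene. Results called in neither setting count among the 4155 whatever their direction, and some changed sign. GDF15 in CP70 over A2780, for example, was 0.45 with all arrays and -0.85 without CP70 replicates 1 and 3. The count of p53 targets called was 22 in CP70 over A2780, 5 with decitabine, 11 with PXD101 and 5 with both drugs over untreated CP70, and 11 with both drugs over PXD101. With a 2-fold minimum the counts were 9, 0, 4, 0 and 5 in that order, and 8, 10 and 8 for decitabine, PXD101 and both drugs over A2780. Rank product called 4, 1, 3 and 1 in the first 4 comparisons. With only the compared arrays in the fit, decitabine gave 0, PXD101 0 and both drugs 2. Array weights ranged from 0.158 for CP70 replicate 2 to 5.13 for CP70 replicate 3. They gave 14 with decitabine, 23 with PXD101, 15 with both drugs, 17 with both drugs over PXD101 and 14 for the non-additive term. For the 2-fold minimum, the compared arrays alone and array weights, the share of all genes called is not given here. These counts therefore do not set the p53 targets apart from other genes. The replicate block gave 6 with PXD101 (1 higher, 5 lower) and moved no other count by over 1.5 times. Same-numbered arrays of different groups share only a number: their deviations from group means correlated at -0.38 to 0.49 over 30 pairs, 7 over 0.1. In 10 of 30 checks an array correlated best with the array of its own number. Without CP70 replicate 2, decitabine gave 11, both drugs 11 and the non-additive term 12, and without replicates 1 and 3 PXD101 gave 0.

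Leaving out 1 array at a time gave 20 to 23 calls in CP70 over A2780, 3 to 11 with decitabine, 0 to 14 with PXD101, 2 to 11 with both drugs, 0 for both drugs over decitabine, 6 to 12 for both drugs over PXD101 and 0 to 12 for the non-additive term. Over A2780 the ranges were 22 to 24, 17 to 20 and 21 to 23 for decitabine, PXD101 and both drugs. The single decitabine arrays that end the CDKN1A, TIGAR and TP53I3 calls are named with those genes. The cause of these differences was not tested.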
